A study of Mus musculus with 6 samples.

Results

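The genes described here encode the proteins of the mitochondrial ribosome, measured in the liver of mice with and without Nrf2. Members were all probe sets annotated to exactly 1 gene symbol that starts with Mrpl or Mrps followed by a digit. A probe set is a group of short oligonucleotide probes that together report 1 transcript. This gave 156 probe sets for 76 genes, out of 45037 probe sets that were not controls and 18194 genes with a single name. Of these, 104 probe sets and 47 genes carried large subunit names (Mrpl), and 52 probe sets and 29 genes carried small subunit names (Mrps). Another 4 probe sets were left out because their annotation named a second gene beside Mrpl30, Mrpl53 or Mrps34. Mrps34 kept a probe set of its own, while Mrpl30 and Mrpl53 are not among the 76. All 76 genes had at least 1 probe set bright enough to be tested.

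The 6 arrays were of mice of strain C57B/SV129 aged 10 weeks, 3 of genotype Nrf2 ko and 3 of genotype Nrf2 wt, with no treatment or surgery named in the labels. RNA of 3 animals was pooled for each array, and replicate error below is therefore error between pools, in which single animals cannot be seen. The replicates are described as biological, but whether an animal entered more than 1 pool is not stated. No targeted exon, promoter or cell type that would limit the knockout is named.

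Mitochondria keep a ribosome of their own, which translates the few messages of mitochondrial DNA, all of them coding for membrane subunits of the respiratory chain and ATP synthase. Its RNA comes from mitochondrial DNA, but every one of its proteins is encoded in the nucleus, made in the cytosol and imported. The large subunit joins amino acids and feeds the growing chain to the inner membrane, and the small subunit binds the message and reads its codons. About nuclear regulators, the names are easily confused: the Nrf2 deleted here is the product of Nfe2l2, a factor that binds antioxidant response elements. It is distinct from nuclear respiratory factor 1 (Nrf1) and from the ETS factor GABP, once called nuclear respiratory factor 2, both of which are known to bind promoters of mitochondrial ribosomal genes. The question addressed is whether these transcripts differed in liver without Nrf2, and whether the subunits differed from each other.

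At the brighter Nfe2l2 probe set intensity was 5.74, 7.40 and 6.90 without Nrf2 and 696, 598 and 625 in wild-type liver, so each array matched its label. The defining hepatocyte markers were all measured, with a summed intensity of 72020 to 76770 in the knockout and 76050 to 82700 in the wild type. The arrays differed in overall brightness, the median intensity of tested genes running from 112 to 159, with knockout pool 1 and wild-type pool 2 dimmest. Normalized values are therefore used below. Other measures were compared between genotypes as well. The ratio of 3′ to 5′ actin control signal was 1.942, 1.964 and 2.005 in the knockout, each above the wild-type values of 1.772, 1.936 and 1.878, though the nearest pools differed by less than 0.01. The same ratio for Gapdh overlapped, at 0.784, 0.725 and 0.793 against 0.756, 0.767 and 0.756. All 8 stellate cell and fibroblast markers were higher in the knockout, with a median log2 difference of 0.28, although their summed intensities overlapped (2523 to 3110 against 1900 to 3106). None was at 0, the lowest value being 6.02 for Des in wild-type pool 3. The 4 tested lymphocyte and granulocyte markers were also all higher, with a median of 0.28. Over all 8 listed markers of this kind with a probe set, 4 of them under the brightness filter, summed intensities were 317 to 518 against 290 to 447. Kupffer cell and macrophage markers were higher for 5 of 8, endothelial for 3 of 7, red blood cell for 1 of 2 and cholangiocyte for 0 of 2. Red blood cell sums ran from 254 to 1042 in the knockout and from 349 to 1495 in the wild type. Their part in the results was not tested. In whole liver, fewer cells of a type and less RNA per cell cannot be told apart.

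No gene of the mitochondrial ribosome passed the test, and most lay slightly higher in the knockout. Of the 76 genes, each read at its brightest tested probe set, 57 were higher and 19 lower in the knockout, 75% higher against 51.4% of all 11102 tested genes. The median log2 difference, knockout minus wild type, was 0.09 over the members and 0.01 over all genes, where a difference of 1 would be 2-fold. Individual differences ran from -0.39 for Mrps18a to 0.30 for Mrpl40. With limma and Benjamini-Hochberg adjustment over all tested probe sets, 0 of the 76 genes and 0 of the 132 tested member probe sets had an adjusted p under 0.05. The share called over all tested genes was 0.144%, and over all tested probe sets 0.142%. The lowest adjusted p of a member was 0.533. At an unadjusted p under 0.05 stood 4 of the 76 genes, a share of 5.26% against 8.22% of all tested genes. Of these 3 were higher, where 4.07% of all tested genes were, and 1 lower, where 4.15% were. That count of 4 was 2 when either knockout pool 2 or wild-type pool 2 was left out. It was also 2 when limma was run with no intensity trend, and 1 with median centring. With the replicate number as a block, or without wild-type pool 1, the count was 3. It rose to 5 with every probe set tested, with arrays weighted, or without knockout pool 1.

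The spread between pools sets what could be called for a single gene. The median standard deviation of a member within a genotype was 0.12 on the log2 scale, against 0.18 over all tested genes, which include dimmer ones. The standard error of a member's difference had a median of 0.11, against 0.08 for both the cytosolic ribosomal protein genes and the complex I subunit genes. The median over the 76 members, taken array by array, had a standard deviation of 0.04 between pools. The 95% intervals of the differences included 0 for 72 of 76 genes, and their median half-width was 0.26. The bounds of all 76 intervals lay between -0.68 and 0.59, and the largest point estimate was the 1.31-fold of Mrps18a. A shift of the whole group by 0.1 was below the half-width of most of these intervals and could not be called gene by gene at this number of arrays.

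**Figure D1:**
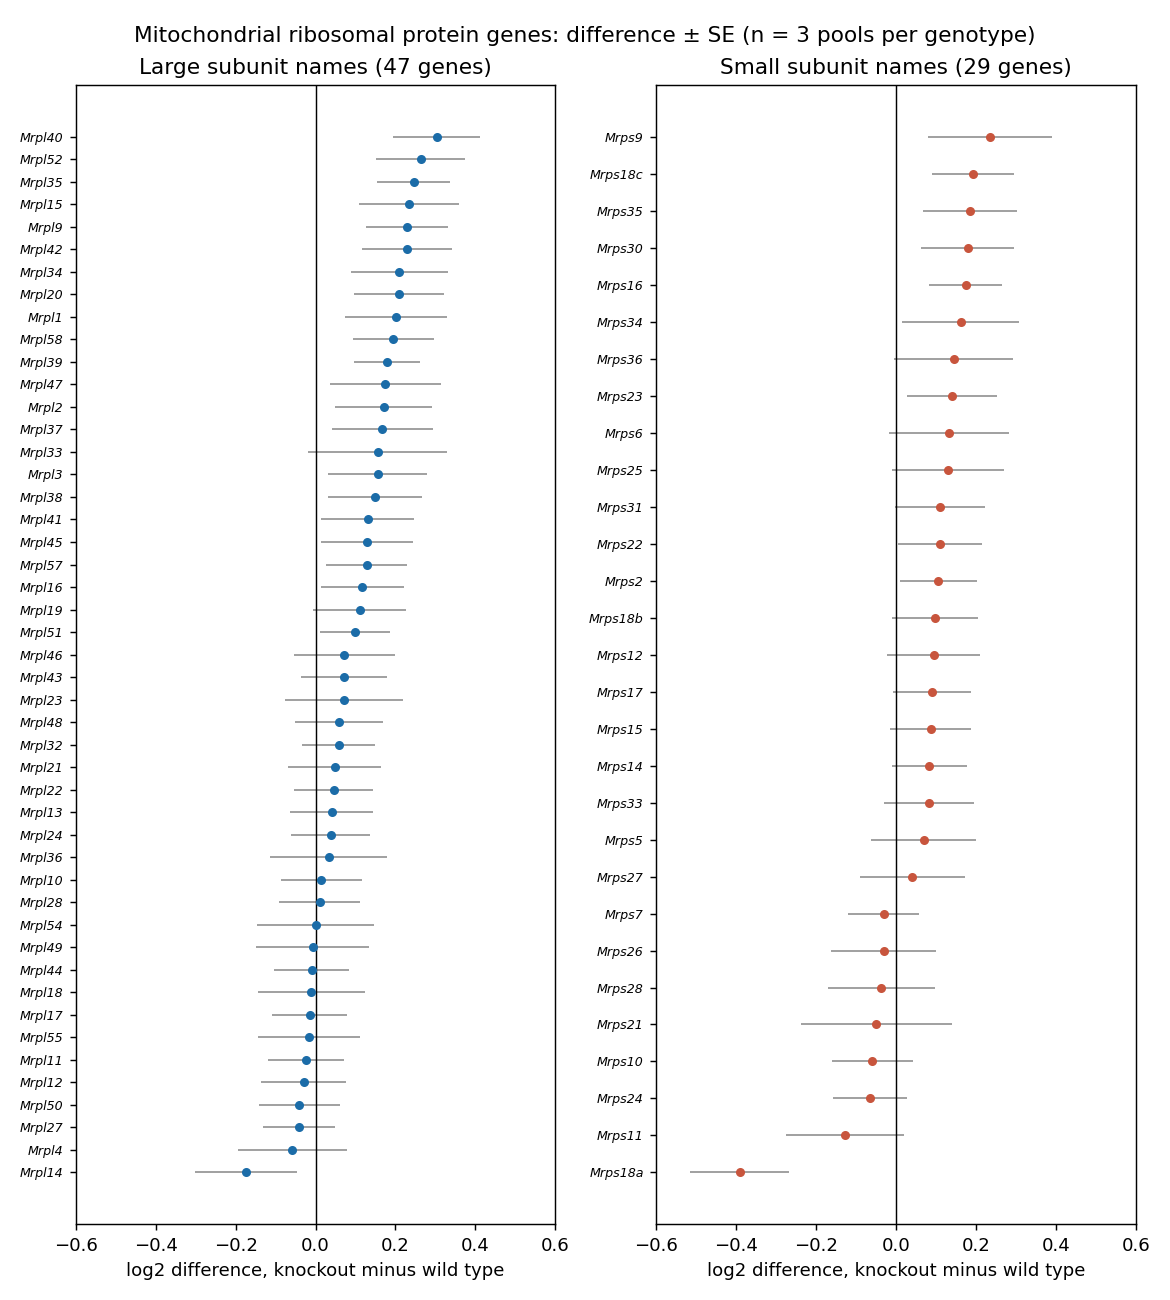
Log2 difference, knockout minus wild type, of each of the 76 genes at its brightest tested probe set, with the limma standard error as bars (n = 3 pools per genotype), large subunit names at left and small at right. Most points lie right of 0 with bars near or across it, and Mrps18a lies farthest left at -0.39.

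The count of higher genes depended on the normalization. With arrays centred on their medians in place of quantile normalization, 49 of 76 members were higher, while the share over all tested genes was 43.8%. The median difference was then 0.03 over the members and -0.03 over all genes. Under both, the members' median lay above that of all genes. All 76 genes also passed the stricter brightness filter at the 70th percentile, above which 52.0% of all genes were higher.

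**Figure D2:**
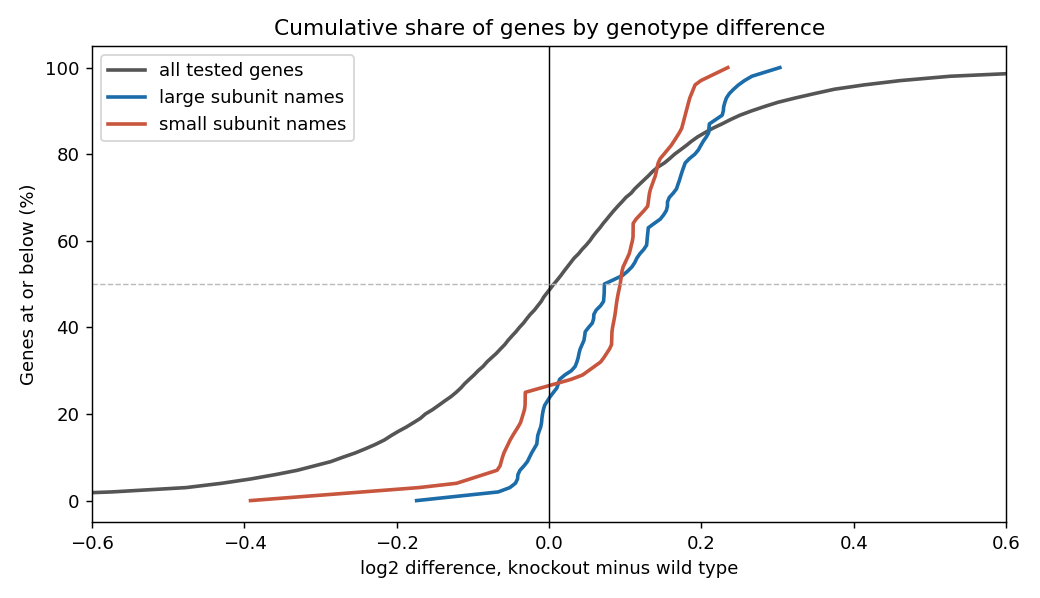
Cumulative share of genes (%, vertical axis) at or below a given log2 difference (horizontal axis) for all 11102 tested genes, 47 large subunit names and 29 small subunit names. Both member curves cross 50% right of 0 (0.07 and 0.09) and rise more steeply than the curve of all genes, which crosses at 0.01.

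The members' levels were highest in a single pool. Knockout pool 2 lay above the 6-pool mean for 68 of 76 genes, 89.5%, against 53.5% of all tested genes on that array. It was the highest of the 6 pools for 39 of the 76 members, 51.3%, where the same pool was highest for 23.5% of all tested genes. The median deviation from a gene's 6-pool mean was 0.11 in knockout pool 2, but 0.01 and 0.02 in knockout pools 1 and 3. In the wild type it was -0.03 in each of the pools, with 27, 30 and 28 of 76 genes above their mean. Knockout pools 1 and 3 had 39 and 44 genes above the mean. Without knockout pool 2, 52 of 76 genes were higher against 50.7% of all tested genes, and the median was 0.05 in place of 0.09. Without knockout pool 1 the median was 0.12, and without any other pool it lay between 0.08 and 0.10.

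**Figure D3:**
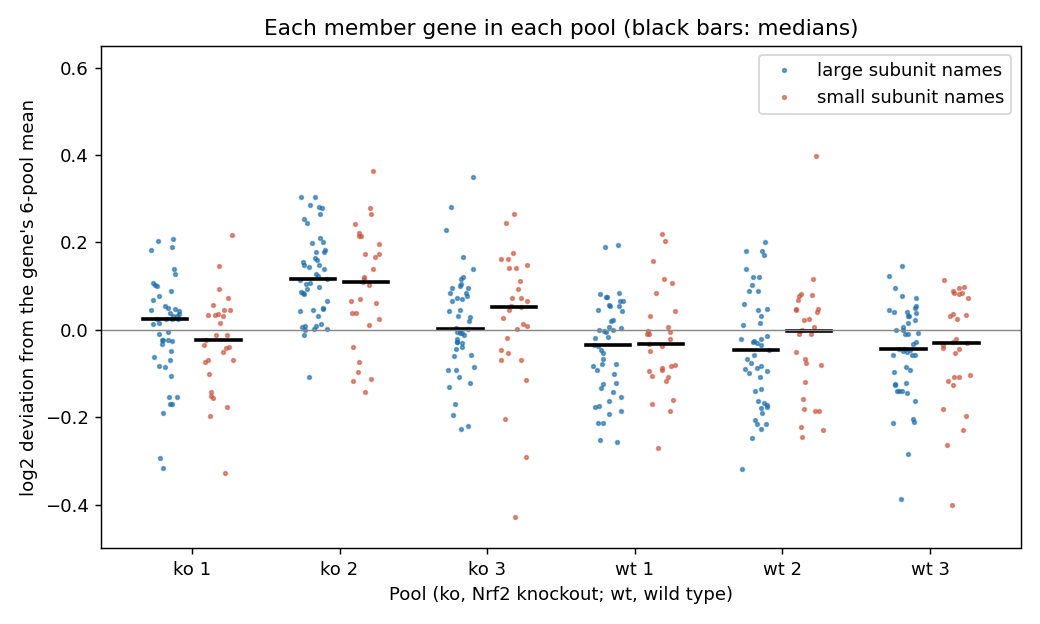
Log2 deviation of each of the 76 genes from its own 6-pool mean (vertical axis) in each pool (horizontal axis), by subunit name, with black bars at the medians. The knockout pool 2 medians stand highest, at 0.12 for large and 0.11 for small subunit names, and the wild-type medians lie at or below 0.

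Large and small subunit genes did not separate. Of the 47 large subunit genes 36 were higher, 76.6%, with a median of 0.07, and of the 29 small subunit genes 21 were higher, 72.4%, with a median of 0.09. The difference of the medians, large minus small, was -0.02, while the same difference taken array by array varied with a standard deviation of 0.04 between pools. By pool, the large subunit median exceeded the small by 0.05 in knockout pool 1 and 0.01 in knockout pool 2, and lay 0.05 below it in knockout pool 3. In the wild-type pools the large subunit median lay below the small by less than 0.01 in pool 1, and by 0.04 and 0.01 in pools 2 and 3. The knockout pools thus fell on both sides of 0. The order of the medians turned in 4 of the 6 fits that left out 1 pool. Leaving out knockout pool 3 gave a difference of 0.03, wild-type pool 1 gave 0.02, and knockout pool 2 and wild-type pool 3 each gave 0.01. Quartiles were 0.01 and 0.17 for the large and -0.03 and 0.14 for the small subunit.

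Names and places do not fully match in this family. The products of Mrps30 and Mrps18a lie in the large subunit of the mammalian mitochondrial ribosome, and that of Mrps36 is now assigned to the alpha-ketoglutarate dehydrogenase complex. With these genes placed by structure, the medians were 0.07 for the large and 0.09 for the small subunit, as before. Mrps30 was at 0.18 ± 0.12 (SE, n = 3 per genotype, limma adjusted p = 0.765) and Mrps36 at 0.14 ± 0.15 (limma adjusted p = 0.868).

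In the large subunit, the genes with the smallest p-values were all higher in the knockout, and none passed. Mrpl40, a protein of the central protuberance that faces the small subunit, had normalized log2 values of 8.10, 8.34 and 8.12 without Nrf2, against 7.89, 7.87 and 7.89 in wild-type liver. The groups did not overlap, and knockout pool 2 was highest. Its difference was 0.30 ± 0.11 (SE), 1.23-fold, with an unadjusted p of 0.0225 by limma and an adjusted p of 0.597. Its deposited intensities, before arrays were brought to a common level, did overlap: 226, 290 and 298 in the knockout against 282, 191 and 269. Mrpl35, a counterpart of bacterial protein L35, stood at 9.19, 9.04 and 9.11 in the knockout and 8.87, 8.91 and 8.83 in the wild type. Again no wild-type pool reached a knockout pool, with a difference of 0.25 ± 0.09 (limma adjusted p = 0.600). Mrpl52, a protein found only in mitochondrial ribosomes, was at 8.75, 8.90 and 8.58 against 8.44, 8.45 and 8.55, the highest wild-type pool lying just under the lowest knockout pool. Its difference was 0.26 ± 0.11 (limma adjusted p = 0.638).

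The other named large subunit genes did not reach an unadjusted p of 0.05. Mrpl9, a counterpart of bacterial L9, was at 0.23 ± 0.10, and Mrpl39, which resembles a threonyl-tRNA synthetase domain, at 0.18 ± 0.08. Mrpl58, a ribosome-bound release factor relative that frees stalled peptides, was at 0.19 ± 0.10. In each of these 3 genes the groups did not overlap. Mrpl42 was at 0.23 ± 0.11 and Mrpl15, a counterpart of bacterial L15, at 0.23 ± 0.12, with groups that overlapped. The lowest of the large subunit was Mrpl14, at -0.17 ± 0.13 (limma adjusted p = 0.795).

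Grouped by place in the large subunit, the genes differed little. The places are from general knowledge of the structure, and the groups were drawn with the values known. Of 6 central protuberance genes (Mrpl18, Mrpl38, Mrpl40, Mrpl46, Mrpl48 and Mrpl58) 5 were higher, with a median of 0.11 and a range from -0.01 to 0.30. Of 5 genes around the peptidyl transferase centre, where peptide bonds form (Mrpl2, Mrpl3, Mrpl4, Mrpl16 and Mrpl27), 3 were higher, between -0.06 and 0.17. Of 6 genes at the exit tunnel and the membrane side (Mrpl17, Mrpl22, Mrpl23, Mrpl24, Mrpl45 and Mrpl47) 5 were higher, between -0.01 and 0.17. The stalk genes Mrpl1, Mrpl10, Mrpl11 and Mrpl12, whose products move tRNA out and recruit translation factors, had a median of 0.00, with Mrpl1 at 0.20 and the other members between -0.03 and 0.01. Mrpl12, which also binds the mitochondrial RNA polymerase, was at -0.03 ± 0.11. The groups hold few genes each, and no test was made between them.

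In the small subunit list the gene with the smallest p-value went the other way. Mrps18a had deposited intensities of 353, 391 and 418 without Nrf2, against 661, 523 and 536 in wild-type liver. Every knockout pool lay below every wild-type pool, and Mrps18a was the single member gene of the 76 for which this held before as well as after normalization. Before normalization the arrays differed in level. The median intensity of tested genes was 113, 123 and 142 in the knockout and 159, 112 and 149 in the wild type. The share of all tested genes that separate in deposited intensities was not counted. Normalized log2 values of Mrps18a were 8.74, 8.75 and 8.60 against 9.11, 9.29 and 8.86. The difference was -0.39 ± 0.12 (SE, n = 3 per genotype), 1.31-fold lower, with a 95% interval from -0.68 to -0.11. Its unadjusted p was 0.0123 by limma and its adjusted p 0.533, ranging from 0.351 to 0.908 over the alternatives, so it was not called. After normalization the groups did not overlap for 7 members with the knockout above, 9.21% of 76 against 7.38% of all tested genes. The knockout lay below for Mrps18a alone, 1.32% against 6.55%.

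Mrps18a belongs to a trio of nuclear paralogs of bacterial S18, and the other two did not share its direction. Mrps18b, whose product sits in the small subunit as a mitochondria-specific protein, was at 0.10 ± 0.11, with normalized log2 values of 8.74, 8.75 and 8.79 in the knockout and 8.71, 8.49 and 8.80 in the wild type. Mrps18c, the direct counterpart of bacterial S18, was at 0.19 ± 0.10, with 9.17, 9.44 and 9.41 against 9.07, 9.18 and 9.19. For both, the groups overlapped and the 95% interval included 0 (-0.15 to 0.34 and -0.04 to 0.43). Taken within each array, the log2 value of Mrps18a minus that of Mrps18c differed by -0.58 between genotypes, knockout minus wild type, with SDs between pools of 0.19 and 0.24 (n = 3 each). For Mrps18a minus Mrps18b the difference was -0.49, and for Mrps18b minus Mrps18c it was -0.10. Exact two-sided permutation tests over the 6 arrays gave p = 0.1 for each pair with Mrps18a, the smallest that 3 against 3 can give, and p = 0.5 for the third. Adjusted over the 3 pairs these were 0.15, 0.15 and 0.5. Both pairs with Mrps18a share its values, which already separated by genotype, so they are not independent tests of it. Each of the trio was read by 1 probe set.

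**Figure D4:**
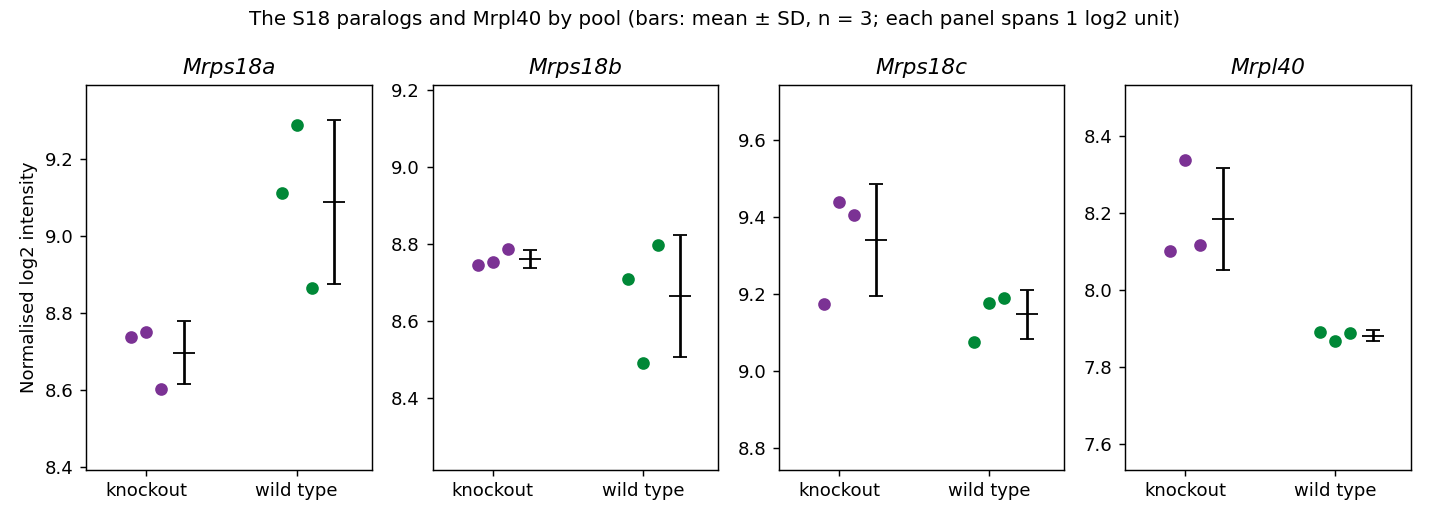
Normalised log2 intensity (vertical axis, each panel spanning 1 log2 unit) of Mrps18a, Mrps18b, Mrps18c and Mrpl40 in the 3 knockout and 3 wild-type pools, with mean ± SD as bars. The Mrps18a pools separate with the knockout lower (8.60 to 8.75 against 8.86 to 9.29), Mrpl40 separates with the knockout higher, and the pools of Mrps18b and Mrps18c overlap.

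Most of the other small subunit genes were slightly higher in the knockout, and none passed. Mrps16, a counterpart of bacterial S16, was at 0.17 ± 0.09 and was the single small subunit gene with all knockout pools above all wild-type pools (8.95, 9.04 and 9.03 against 8.84, 8.76 and 8.90). Its limma adjusted p was 0.713. Mrps9, a protein of the subunit head, had the largest positive difference at 0.23 ± 0.15. Mrps35, found only in mitochondrial ribosomes, was at 0.18 ± 0.12, and the mitochondria-specific Mrps34 and Mrps23 at 0.16 ± 0.15 and 0.14 ± 0.11. Among the 15 small subunit genes grouped as having a bacterial counterpart 10 were higher, with a median of 0.09. These include Mrps12 of the decoding centre at 0.09 ± 0.12, Mrps7 at -0.03 ± 0.09, and Mrps11, the second lowest of the small subunit names, at -0.13 ± 0.15. Among the 11 grouped as mitochondria-specific 9 were higher, with a median of 0.11, from -0.04 for Mrps28 to 0.18 for Mrps35. The grouping was made from general knowledge, and the place of Mrps28 in it is uncertain. The ranges of both groups overlapped.

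The direction read for a gene often depended on which of its probe sets was taken. Of the 76 genes 34 had a single probe set on the array, and 33 had 2 or more that passed the brightness filter. Among these 33, the tested probe sets differed in sign for 20 genes, 13 of the large and 7 of the small subunit, and had the same sign for 13. The 13 large subunit genes were Mrpl1, Mrpl3, Mrpl11, Mrpl13, Mrpl15, Mrpl17, Mrpl19, Mrpl35, Mrpl38, Mrpl44, Mrpl50, Mrpl51 and Mrpl57. The 7 small subunit genes were Mrps2, Mrps5, Mrps14, Mrps21, Mrps23, Mrps24 and Mrps31. The brightest probe sets were higher in 57 of 76 cases, and the 56 dimmer tested ones in 36, or 64.3%, with a median of 0.07. Mrpl35 shows the widest conflict at low p: beside its bright probe set at 0.25, a dim one had normalized log2 values of 4.76, 5.29 and 5.19 in the knockout and 5.56, 5.82 and 5.68 in the wild type. That probe set was at -0.60 ± 0.20 (limma adjusted p = 0.548), all knockout pools being lower. For Mrpl15 the brightest of 6 tested probe sets was at 0.23, and 1 dim probe set at -0.63. Mrpl52 was higher at all 3 of its tested probe sets, from 0.12 to 0.45, and Mrps9 at all 4, from less than 0.01 to 0.38.

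**Figure D5:**
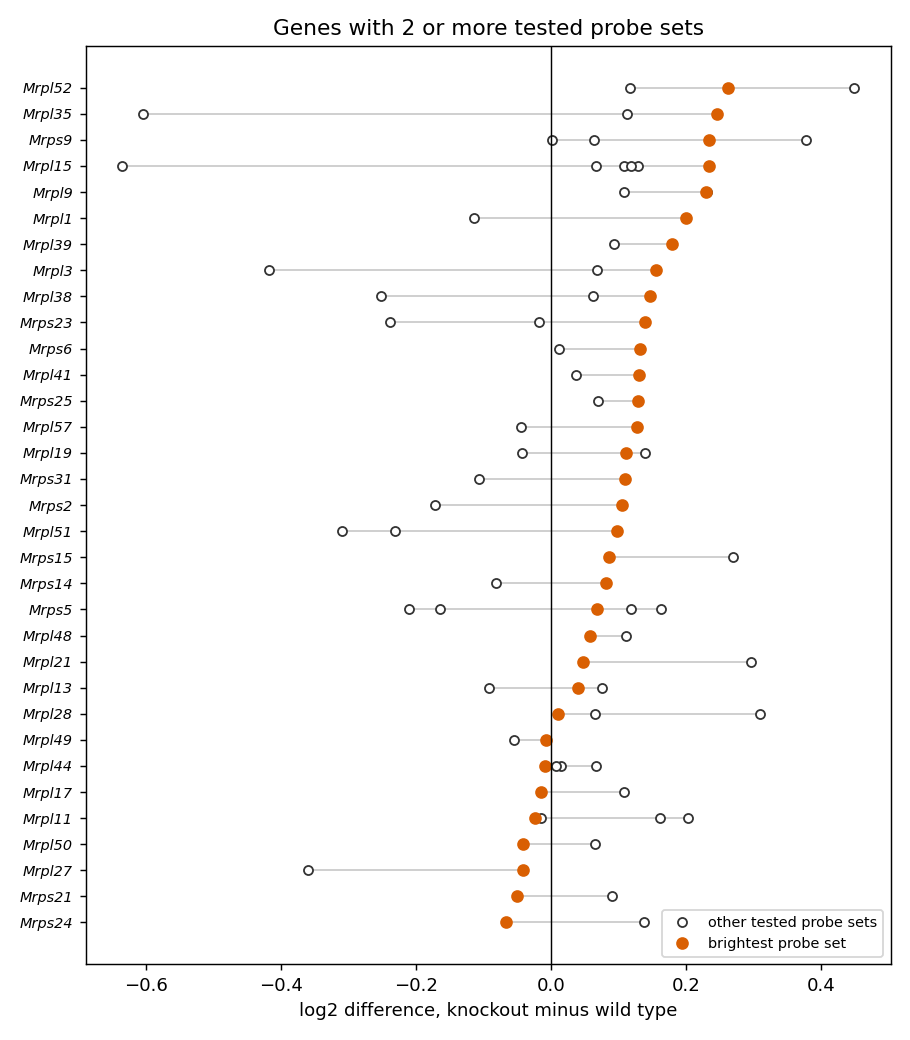
Log2 difference, knockout minus wild type (horizontal axis), at each tested probe set of the 33 genes that had 2 or more, with the brightest filled. The grey line of a gene crosses 0 for 20 of the 33 genes, among them Mrpl35 (-0.60 to 0.25) and Mrpl15 (-0.63 to 0.23).

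Over all members, 8 of 132 tested probe sets had an unadjusted p under 0.05, against 7.63% of all tested probe sets. Beside those already named they were a dimmer probe set of Mrpl27 at -0.36 ± 0.14, one of Mrpl28 at 0.31 ± 0.12 and one of Mrps9 at 0.38 ± 0.15, chosen after their values were seen. By Affymetrix naming, probe sets ending in _x_at may bind related sequences and those ending in _s_at are shared between similar transcripts. Of 14 tested _x_at probe sets 10 were higher, of 9 _s_at probe sets 8, and of the 78 with the plain ending 52, with medians of 0.07, 0.13 and 0.07. Mitochondrial ribosomal genes have processed pseudogenes, so for a gene read by an _x_at probe set, such as Mrpl52 and Mrpl15, the share of the named transcript in the signal is uncertain. The 24 member probe sets under the brightness filter had intensities from 0.207 to 39.0, and 0 of them had an unadjusted p under 0.05 in a limma fit of all probe sets.

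What the members shared beyond their names was looked for in their promoters, which are shown for the S18 trio, whose directions differed, and for Mrpl9 and Mrpl22, which hold motifs that the trio's stretches lack. RefSeq windows of build GRCm38.p6, from 250 bases before to 50 after an annotated start, matched 67 of the 76 genes, in 73 windows. The 150 bases before the start are printed 5′ to 3′ on the gene's strand. Capitals mark the ETS core CCGGAAG bound by GABP and its relatives, the NRF1 core (GCGCA and GCGC with 1 base of any kind between them), the YY1 core ATGGCGG and the antioxidant response element core TGACNNNGC, each on either strand. They lie at chr17:46110854-46111003 (plus strand) for Mrps18a, chr17:35916441-35916590 (minus) for Mrps18b, chr5:100798609-100798758 (plus) for Mrps18c, chr3:94443186-94443335 (plus) for Mrpl9 and chr11:58171514-58171663 (plus) for Mrpl22.
Mrps18a: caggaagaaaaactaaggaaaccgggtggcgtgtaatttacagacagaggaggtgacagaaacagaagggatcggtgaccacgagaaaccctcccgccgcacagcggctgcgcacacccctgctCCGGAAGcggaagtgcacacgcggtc
Mrps18b: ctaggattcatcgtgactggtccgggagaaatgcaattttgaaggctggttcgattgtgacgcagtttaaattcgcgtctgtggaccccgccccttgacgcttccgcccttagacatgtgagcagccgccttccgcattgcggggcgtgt
Mrps18c: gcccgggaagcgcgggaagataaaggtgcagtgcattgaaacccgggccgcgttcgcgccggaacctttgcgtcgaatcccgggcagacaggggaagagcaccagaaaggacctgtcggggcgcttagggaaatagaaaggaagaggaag
Mrpl9: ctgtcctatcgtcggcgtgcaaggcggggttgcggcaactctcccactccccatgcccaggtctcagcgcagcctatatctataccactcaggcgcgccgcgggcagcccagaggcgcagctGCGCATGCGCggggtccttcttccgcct
Mrpl22: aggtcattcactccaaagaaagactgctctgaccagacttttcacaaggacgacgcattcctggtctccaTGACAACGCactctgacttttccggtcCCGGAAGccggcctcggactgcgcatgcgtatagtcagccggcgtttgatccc

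Mrps18a thus holds an ETS core close before its start, Mrpl9 an NRF1 core, and Mrpl22 an ETS core and an antioxidant response element core, and the stretches of Mrps18b and Mrps18c hold none of these within 150 bases. Their full windows each hold an ETS core outside the stretch shown, and that of Mrps18c an antioxidant response element core. The full windows of Mrps18a, Mrpl9 and Mrpl22 each also hold a YY1 core that does not lie within the stretch shown. In the full windows of 300 bases, 25 of 67 member genes, 37.3%, had an ETS core, against 20.0% of 8817 tested protein-coding genes with a window and 9.93% of all genes with one. The NRF1 core was found in 12 member genes, 17.9% against 11.8% of tested protein-coding genes, and the YY1 core in 12, 17.9% against 9.57%. The Sp1 box GGGCGG was found in 34, 50.7% against 68.1%. Large and small subunit genes held the ETS core in 34.1% and 42.3%. The antioxidant response element core, the sequence Nrf2 itself binds with small Maf proteins, was found in 13 member genes, 19.4% against 17.0% of tested protein-coding genes. Sites of different motifs overlapped in 2 member windows. A match is a run of letters only, and occupancy was not measured here.

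The genotype difference was set beside each motif. The 13 genes with an antioxidant response element core had a median difference of 0.09, and the 54 without it also 0.09, with 9 and 41 higher. The 25 genes with an ETS core had a median of 0.09 and the 42 without it 0.09. The 12 genes with an NRF1 core had a median of 0.02, with 6 higher, and the 55 without it 0.09, with 44 higher. Among the 12 were Mrpl12 at -0.03, Mrpl14 at -0.17, Mrpl9 at 0.23 and Mrps9 at 0.23, so genes with this core lay both below and above 0. No test was made between these groups.

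Many member genes start head to head with another gene. Within 1000 bases upstream of a start, 25 of 67 member genes, 37.3%, had the start of a gene on the other strand, against 19.5% of tested protein-coding genes. In 1 case the pair joins both subunits: Mrpl46 and Mrps11 start 42 bases apart, and were at 0.07 ± 0.13 and -0.13 ± 0.15. Other partners belong to mitochondria as well. Mrps12 pairs with the mitochondrial seryl-tRNA synthetase gene Sars2 (0.09 and 0.09), Mrpl43 with the mitochondrial DNA helicase gene Twnk (0.07 and 0.00) and Mrpl47 with the complex I gene Ndufb5 (0.17 and 0.08). Mrpl40 pairs with the histone chaperone gene Hira, 113 bases away, which was at -0.53 ± 0.32 where Mrpl40 was at 0.30. Of the 20 pairs with a tested partner, counting Mrpl46 and Mrps11 once from each side, the partner was higher in 10 and had the same sign as the member in 11. No partner passed limma (0 at an adjusted p under 0.05, 2 at an unadjusted p under 0.05).

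The lists of other genes of mitochondrial translation and its regulation had median differences from 0.00 to 0.09, against 0.09 over the members. Single genes in them ran from -0.46 to 0.79, a wider range than the -0.39 to 0.30 of the members. In the lists below, as among the members, 0 genes passed limma at an adjusted p of 0.05. Mitochondrial ribosomal proteins under other names were measured for 4 of 5 listed genes. Of these 3 were higher, Ptcd3 at 0.18 ± 0.14 and Gadd45gip1 at -0.22 ± 0.18 having the smallest p. Translation factors, which start, elongate and end the chain, were higher for 8 of 11, with a median of 0.04 and 1 at an unadjusted p under 0.05. That was the elongation factor gene Gfm1, at 500, 566 and 643 in the knockout and 618, 418 and 631 in the wild type, or 0.22 ± 0.09 after normalization, where all knockout pools were above the wild type. Lrpprc, which stabilises mitochondrial messages, was at -0.12 ± 0.10.

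Ribosome assembly and rRNA modification genes were even, 13 of 26 being higher, with a median of 0.00. Rcc1l, an assembly factor, was at -0.46 ± 0.17, with an unadjusted p of 0.0266 and an adjusted p of 0.606 by limma. All its knockout pools lay below the wild type after normalization, while its deposited intensities overlapped (59.4, 59.5 and 102 against 119, 83.5 and 133). The helicase gene Ddx28 was at 0.23 ± 0.13. Genes of mitochondrial tRNA charging were higher for 13 of 20, with a median of 0.02. The list holds aminoacyl-tRNA synthetases and the amidotransferase subunit genes Qrsl1, Gatb and Gatc. Of the synthetase genes, Kars and Gars also encode the cytosolic enzymes. Nars2 was lowest at -0.38 ± 0.15, with an unadjusted p of 0.0335 and an adjusted p of 0.612 by limma, and Cars2 was at -0.25 ± 0.15. Among mitochondrial transcription and genome upkeep genes 8 of 11 were higher, with a median of 0.08, Mterf1a being at 0.30 ± 0.20 and Tfam, which packages mitochondrial DNA, at 0.13 ± 0.13.

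Regulators of mitochondrial gene expression were higher for 8 of 11, with a median of 0.02. The coactivator gene Ppargc1a was at 0.79 ± 0.24, with an unadjusted p of 0.0105 and an adjusted p of 0.514 by limma. Its intensities were 110, 191 and 237 in the knockout and 124, 65.1 and 151 in the wild type, and the groups overlapped. The orphan receptor gene Esrra, a partner of that coactivator, was at -0.26 ± 0.13, lower in every knockout pool after normalization.

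Most genes of related nuclear-encoded groups were also higher, to differing degrees. Of 47 tested cytosolic ribosomal protein genes 36 were higher, with a median of 0.08, 4 at an unadjusted p under 0.05 and 12 with all knockout pools above all wild-type pools. Of 33 complex I subunit genes, which code for the first enzyme of the respiratory chain, 31 were higher, with a median of 0.12, 9 at an unadjusted p under 0.05 by limma and 12 with all knockout pools above. The shares at an unadjusted p under 0.05 were 8.51% of the cytosolic ribosomal protein genes and 27.3% of the complex I genes, against 8.22% of all tested genes. All knockout pools lay above all wild-type pools for 7.38% of all tested genes. By limma 0 genes of either group had an adjusted p under 0.05. Knockout pool 2 was the highest of the 6 pools for 53.2% and 60.6% of them, against 51.3% of the mitochondrial ribosomal genes. No test between these groups and the mitochondrial ribosomal genes was made.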

How the data were processed

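The 6 one-colour arrays, 3 per genotype, were read from the authors' deposited table of probe set intensities, linear values from 0.0174 to 16555. Per the submitters' processing notes the software was GCOS 1.4. Its algorithm and scaling target were not given in the sources used here. A pseudocount of 5.26, the lower quartile of the table, was added before log2 and quantile normalization, which understates fold changes of dim probe sets. After removal of 64 controls, the 22519 probe sets whose mean reached the median were tested with limma 3.58.1 in R 4.3.3 (lmFit, eBayes with intensity trend), two-sided, with Benjamini-Hochberg adjustment over all of them. The procedure was tested on simulated data. Symbols were updated through the Entrez identifier with a mouse gene table of assembly GRCm38.p6, which changed no membership. A gene took its brightest tested probe set.

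Named genes were the 8 with the smallest p in each subunit, the S18 trio, Mrps30, Mrps36, genes whose probe sets differed in sign, and the 2 with the smallest p in each companion list. Members, lists and rules were chosen with earlier results of these data known. Other genes named with values were chosen after those were seen. Samples carrying the same replicate number were not treated as paired. The precision is limited by the number of arrays, and detection calls were not used here.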

Additional observations from a re-analysis of the deposited data

How the results depend on the processing

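No member probe set or gene and no companion gene was called in the main analysis or in any alternative. The alternatives were centring on medians, other pseudocounts (1.31 and 21.0), testing every probe set and testing those above the 70th percentile. Array weights, a fit without the trend, the replicate block and leaving out each pool were also tried. Averaging all tested probe sets of each gene changed the differences only. Its p-values stayed those of the brightest probe set, so it could not change a call. The lowest adjusted p of a member gene was 0.351, with the replicate number as a block. With that replicate block, 0 members were called and the medians stayed at 0.07 and 0.09. Same-numbered arrays had correlations of 0.13, 0.05 and 0.25 in their deviations from the group means, and differently numbered arrays from -0.19 to 0.10. Knockout pool 2 correlated best with wild-type pool 1, while knockout pools 1 and 3 correlated best with the wild-type pool of their own number. These values do not settle whether the numbers pair the samples, and the main fit did not treat them as paired. Median centring moved the large subunit median from 0.0725 to 0.0134 and the small from 0.0933 to 0.0386. Leaving out each pool in turn, the large subunit median ran from 0.0589 to 0.1232, the small from 0.0522 to 0.1266, their difference from -0.0044 to 0.0273 and the number of lower members from 16 to 24. Genes named only because their probe sets differed in sign were not followed through the alternatives, and averaging probe sets may reverse them. Of 450 values of the other named genes except Nfe2l2, 446 kept their direction and, where p was recomputed, their side of the threshold, and 4 reversed. These were Gadd45gip1 without knockout pool 3 (0.0075, its range over pools left out being -0.3524 to 0.0075), Mrps34 without wild-type pool 3 (-0.0001, its range -0.0001 to 0.2428), and Mrpl35 (-0.082) and Mrps23 (-0.0386) with the mean of probe sets. The last 2 follow from averaging probe sets of opposite sign, and the cause of the other 2 was not tested. In deposited intensities with no normalization, an alternative chosen after seeing the data, the groups did not overlap for 1 member in place of 8. The share over all tested genes was not counted for deposited intensities. The number of arrays limits detection, and signal over background was not analysed here.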
